A study of Homo sapiens with 6 samples.

Results

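Iron chelation was examined here through the genes of the collagen hydroxylases, enzymes that need iron themselves. The genes were P4HA1, P4HA2, P4HA3, P4HTM, P3H1, P3H2, P3H3, PLOD1, PLOD2 and PLOD3, 10 of the 62252 annotated genes that had a row in the deposited tables. They were picked by gene name, and the values of all their transcripts were summed per gene. K562, an established line of erythroid leukemia cells, was kept overnight with 10 µM 21H7, a cell-permeable iron chelator (Chelator, n = 3), or with the same volume of DMSO, its solvent (DMSO, n = 3). Both groups grew in the same serum-containing medium, and no gene was altered in either. Libraries were labelled as replicates, but what separated them was not stated, and p-values measure the spread between these libraries.

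Collagen prolyl and lysyl hydroxylases sit in the endoplasmic reticulum and add hydroxyl groups to prolines and lysines of newly made collagen chains, using ferrous iron, oxygen, 2-oxoglutarate and ascorbate. Hydroxylated prolines stabilize the collagen triple helix, and hydroxylated lysines carry sugars and serve as starting points of crosslinks between collagen fibers. Several of these genes are known targets of the hypoxia-inducible factors, whose own prolyl hydroxylases (EGLN1, EGLN2 and EGLN3) also require iron. Erythroid cells are not known as major makers of fibrillar collagen, and the enzymes are also found in many cells that secrete little of it.

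Libraries held 78615500 to 101094957 estimated counts. Fragment lengths, as implied by the difference between length and effective length of undetected transcripts, were 252 to 264 bases in the DMSO libraries but 200 to 218 bases after chelation, without overlap, and the effect of fragment length on gene values was not tested. All 9 erythroid markers were above 1 TPM (a level corrected for transcript length and scaled to a common sum per library) in both groups. Their summed level ran from 12340 to 13690 TPM in DMSO and from 17480 to 18670 TPM in Chelator, nearly all of it globin, while KLF1 (log2 fold change -0.72) and EPOR (-0.44) fell. The 9 markers of collagen-making stroma summed to 3.02 to 3.67 TPM in DMSO and 5.53 to 5.85 TPM in Chelator, and FAP was at 0 counts in all 6 libraries. Of these 9, 1 was above 1 TPM in DMSO and 3 in Chelator. PDGFRB went from 3, 4 and 0 counts to 688, 507 and 489 and COL1A1 from 162, 165 and 158 to 503, 542 and 425, whereas COL1A2 (log2 fold change -0.48) and THY1 (-1.19) fell. Of 5 endothelial markers 1 was above 1 TPM, with sums of 6.22 to 7.97 TPM in DMSO and 3.24 to 5.66 TPM in Chelator. The 4 epithelial markers, dominated by the keratins KRT8 and KRT18, summed to 657 to 752 TPM in DMSO and 1448 to 1643 TPM in Chelator, while EPCAM fell (log2 fold change -0.48). The part of these markers in the results was not tested. In bulk RNA, a change in the share of cells that express a gene cannot be told apart from a change in RNA per cell.

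Because the hydroxylases are often discussed with hypoxia, the 250 bases before the RefSeq start of each gene (GRCh38.p14) were searched for ACGTG and GCGTG, the core letters of the hypoxia response element, on both strands. A palindromic CACGTG counts once on each strand. Of the 10 genes, 9 were matched to 10 promoters, and 5 genes (P4HA1, PLOD1, PLOD2, P3H1 and P3H2) held at least 1 match. By promoter, 6 of the 10 held a match and 3 held ACGTG, and of all 35116 promoters 43.2% and 18.5% did. A match describes letters and not binding. The 3 promoters are shown because their genes differed in response: P4HA1 rose, PLOD2 did not pass the test and PLOD3 fell. Capitals mark the matches on the printed strand, where CACGT is ACGTG read from the other strand.
P4HA1, chr10:73096867-73097116, minus strand: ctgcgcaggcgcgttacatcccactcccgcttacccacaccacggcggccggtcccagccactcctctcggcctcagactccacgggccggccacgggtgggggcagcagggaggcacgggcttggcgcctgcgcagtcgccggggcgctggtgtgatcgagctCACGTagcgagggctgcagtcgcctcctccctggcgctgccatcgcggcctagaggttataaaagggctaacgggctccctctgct
PLOD2, chr3:146161185-146161434, minus strand: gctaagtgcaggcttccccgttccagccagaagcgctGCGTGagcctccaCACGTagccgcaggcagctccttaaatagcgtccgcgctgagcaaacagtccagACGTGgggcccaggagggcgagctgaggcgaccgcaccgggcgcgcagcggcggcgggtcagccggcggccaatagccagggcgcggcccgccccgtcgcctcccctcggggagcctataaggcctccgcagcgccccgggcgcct
PLOD3, chr7:101217582-101217831, minus strand: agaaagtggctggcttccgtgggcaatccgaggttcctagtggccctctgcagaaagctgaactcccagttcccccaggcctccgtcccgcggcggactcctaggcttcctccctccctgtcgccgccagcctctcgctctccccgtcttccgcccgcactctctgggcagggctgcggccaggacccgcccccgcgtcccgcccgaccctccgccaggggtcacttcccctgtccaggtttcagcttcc

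The P4HA1 window held 1 match, beginning 86 bases before the start, and the start coincided with that of its main transcript, P4HA1-203. PLOD2 held 3 matches, beginning 213, 200 and 146 bases before the start. The PLOD3 window held none of these letters. For P4HA2, the RefSeq window lay downstream of the starts of its 3 most abundant transcripts, so its lack of a match says nothing of the promoter in use.

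By level, the 10 genes fell into a set of 6 above 5 TPM in both groups and a set of 4 below 1 TPM in both. In DMSO the order of mean TPM was PLOD3 (75.6 ± 2.48, SD, n = 3), PLOD1 (72.4 ± 4.97), P3H1 (37.5 ± 1.19), P4HA1 (15.1 ± 1.31), P4HA2 (10.8 ± 0.962), P3H3 (5.23 ± 0.434), PLOD2 (0.704 ± 0.173), P4HA3 (0.169 ± 0.119), P3H2 (0.0736 ± 0.0594) and P4HTM (0.0482 ± 0.0143). The libraries of PLOD3 and PLOD1 overlapped, as did P4HA3 with P3H2 and P3H2 with P4HTM. In Chelator PLOD1 (77.2 ± 2.73 TPM) stood above PLOD3 (58.9 ± 1.32 TPM) with no overlap, and P4HA1 (44.5 ± 2.92 TPM) reached the range of P3H1 (45.4 ± 2.72 TPM).

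**Figure D1:**
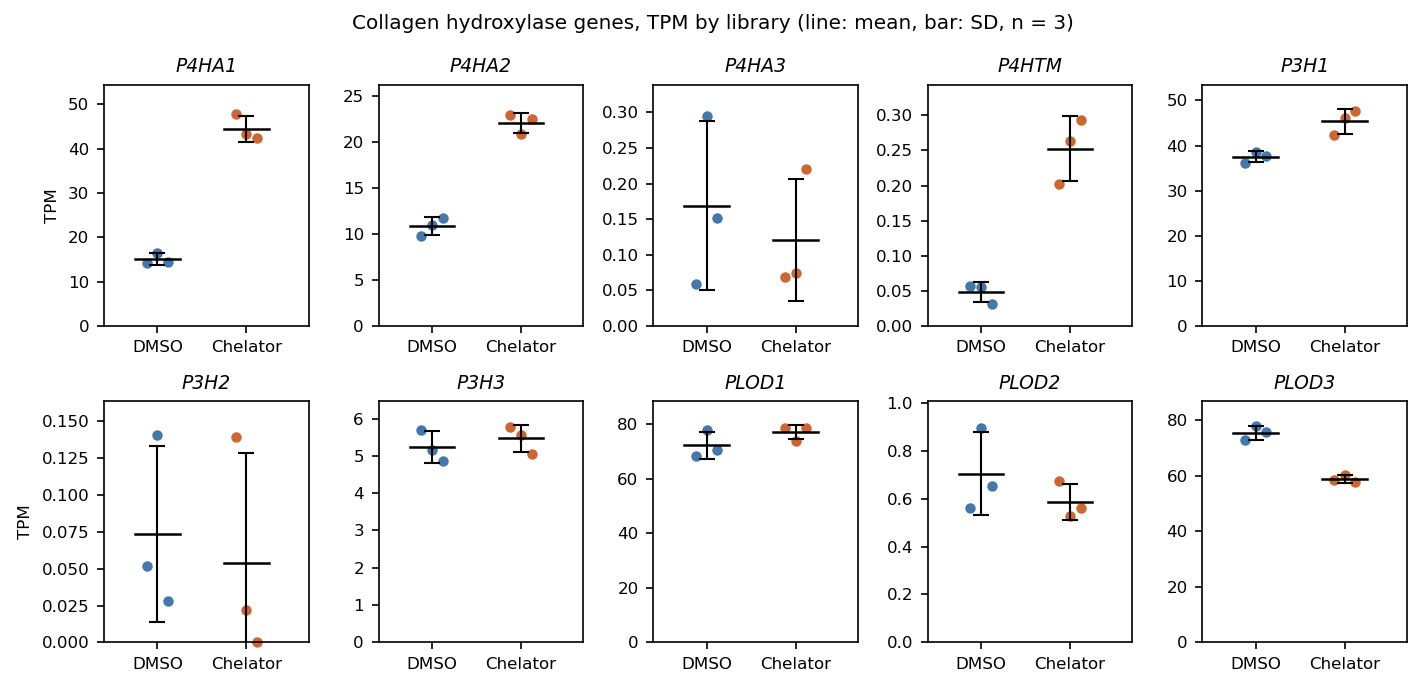
TPM of each hydroxylase gene in each library, on linear axes that start at 0 and differ between panels, with dots for libraries, horizontal lines for means and bars for SD (n = 3, cut at 0 for P3H2). P4HA1, P4HA2, P4HTM and P3H1 are higher in all 3 Chelator libraries than in any DMSO library, PLOD3 is lower, and the other 5 genes overlap.

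Calls required a Benjamini-Hochberg adjusted p under 0.05 in DESeq2's Wald test and a change of more than 1 log2 unit either way. All 10 hydroxylases had a total above 10 counts and were tested, and 2 of them, P4HA1 and P4HTM, were called, both higher in Chelator, where 8.18% of all genes were called higher and 2.6% lower. By adjusted p alone 4 were higher (P4HA1, P4HA2, P4HTM and P3H1, against 19.5% of all genes) and 1 was lower (PLOD3, against 18.3%). Normalized counts of the groups did not overlap for 5 of 10, where 49.2% of all genes did not. The median log2 fold change was 0.05 over the 10 genes and 0.02 over all genes.

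**Figure D2:**
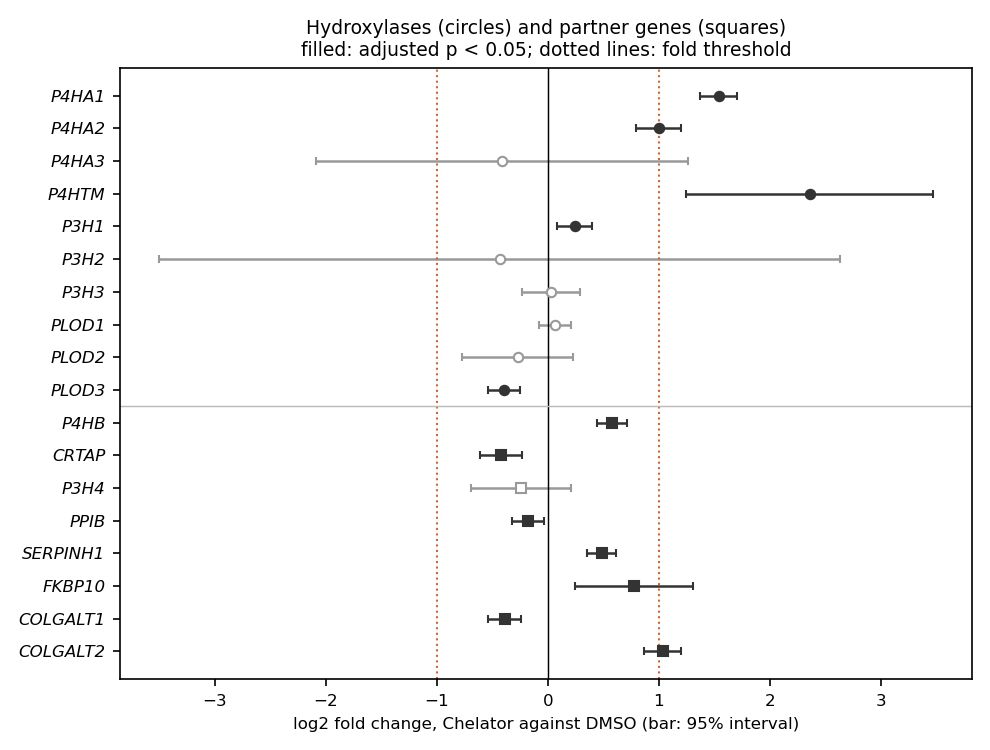
Log2 fold change of Chelator against DMSO with its 95% interval, for the 10 hydroxylase genes (circles) and 8 genes whose products work with them (squares), with filled symbols for an adjusted p under 0.05 and dotted lines at the fold threshold. P4HA1 and P4HTM lie beyond the threshold, P4HA2 lies on it, and the intervals of P4HA3 and P3H2 are the widest of the 10.

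Of the catalytic α subunits of collagen prolyl 4-hydroxylase, which pair with the disulfide isomerase P4HB, P4HA1 and P4HA2 rose and P4HA3 did not pass the test. P4HA1 (chr10:73007217-73096974) was at 14.2, 16.6 and 14.4 TPM in DMSO and 47.8, 43.3 and 42.4 TPM in Chelator. Every Chelator library was above every DMSO library, and the rise was 2.91-fold (log2 fold change 1.54, SE 0.09, adjusted p = 4.93e-70, DESeq2), from a mean of 2549 ± 24.5 to 7411 ± 678 normalized counts. It was called under all 17 alternative settings, with log2 fold changes from 1.47 to 1.66.

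P4HA2 (chr5:132190147-132295315), the second α subunit, was at 9.78, 11.0 and 11.7 TPM in DMSO and 22.9, 20.8 and 22.4 TPM in Chelator. The groups did not overlap and the level rose 2.0-fold, with a log2 fold change of 0.997 (SE 0.104, adjusted p = 2.58e-20, DESeq2), just under the fold threshold. Its 95% interval ran from 1.73-fold to 2.30-fold, and 7 of the 17 alternatives put it past the threshold. Of protein-coding genes that overlap P4HA2 on the opposite strand, PDLIM4 rose as well (log2 fold change 0.96, SE 0.09) and SLC22A4 fell (-0.84, SE 0.13). Whether the counting used strand was not stated, so reads from the stretches they share with P4HA2 cannot be told apart.

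P4HA3 (chr11:74235801-74311640), the third α subunit, was near the limit of detection with 11, 19 and 12 counts in DMSO and 3, 16 and 19 in Chelator. The libraries overlapped, and the fold change of 0.75 had an interval from 0.235 to 2.40 (adjusted p = 0.763, DESeq2). That interval does not settle the direction, and the smallest change detectable at this depth was not tested.

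P4HB itself, which also acts as a general folding enzyme, rose less than P4HA1 and P4HA2, from 268, 310 and 278 TPM to 450, 420 and 429 TPM (log2 fold change 0.58, SE 0.07, adjusted p = 4.57e-15, DESeq2). The summed TPM of the α subunits was 8.95%, 8.99% and 9.45% of that of P4HB in DMSO and 15.7%, 15.3% and 15.2% in Chelator. P4HA1 made up 59.0%, 59.5% and 55.0% of α subunit TPM in DMSO and 67.6%, 67.5% and 65.2% in Chelator, and the P4HA1 to P4HA2 ratio moved from 1.40 ± 0.143 to 2.02 ± 0.112. These were among 8 ratios compared by a two-sided exact permutation test, where 3 against 3 libraries allow no p below 0.10. For 7 of the 8, including these 3, the groups did not overlap (exact permutation p = 0.10, adjusted over the 8 to 0.114).

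P4HTM (chr3:48989889-49007153), a transmembrane prolyl 4-hydroxylase of the endoplasmic reticulum that is best known for its relation to the hypoxia-inducible factors rather than collagen, had the largest fold change and a very low level. It had 10, 12 and 5 counts in DMSO and 33, 46 and 55 in Chelator, or 0.0567, 0.0561 and 0.0317 TPM against 0.2017, 0.263 and 0.293 TPM. The groups did not overlap, and the fitted rise was 5.12-fold with an interval from 2.37 to 11.1 (log2 fold change 2.36, SE 0.57, adjusted p = 0.000165, DESeq2). The ratio of summed counts scaled to library totals was 4.44, with an exact 95% interval of 2.92 to 6.99 for counting error only. Of the 17 alternatives, 15 kept the call, which was lost in limma on log2(TPM + 1) (log2 fold change 0.26) and when tested against a log2 fold change of 1 (adjusted p = 0.430, DESeq2). Protein-coding transcripts held 0%, 0% and 76.4% of P4HTM TPM in DMSO and 56.4%, 48.4% and 77.3% in Chelator, and these shares overlapped. WDR6, a neighbor that overlaps P4HTM on the same strand, held 9633 to 11542 counts in each library and fell (log2 fold change -0.27, SE 0.07). The assignment of reads between the 2 genes was not tested.

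For comparison, the iron-dependent hydroxylases that act on the hypoxia-inducible factors moved in both directions by adjusted p (DESeq2). EGLN3 rose (log2 fold change 0.89, SE 0.11), EGLN2 and HIF1AN fell (-0.25, SE 0.08 and -0.29, SE 0.09), and EGLN1 did not pass the test (0.08, SE 0.08).

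Among the prolyl 3-hydroxylases, P3H1 (chr1:42746335-42767084), which works in a complex with CRTAP and the prolyl isomerase PPIB, was at 36.2, 38.6 and 37.7 TPM in DMSO and 42.4, 46.0 and 47.7 TPM in Chelator. All 3 Chelator libraries were above the DMSO libraries, and the rise was 1.18-fold (log2 fold change 0.24, SE 0.08, adjusted p = 0.00909, DESeq2). This size depended on how transcript length was handled. The mean length over which P3H1 counts were spread was 1870 bases in DMSO and 2108 in Chelator, and a fit that ignored length gave a log2 fold change of 0.41. The adjusted p was 0.0774 when fold changes were centred on the mean of all genes and 0.0657 without Chelator replicate 3.

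CRTAP, the scaffold of that complex, fell from 60.4, 73.0 and 69.0 TPM to 55.7, 47.3 and 50.7 TPM (log2 fold change -0.42, SE 0.09, adjusted p = 4.47e-05, DESeq2). PPIB also fell, by a small amount (log2 fold change -0.17, SE 0.07, adjusted p = 0.0483). The P3H1 to CRTAP ratio of TPM was 0.600, 0.529 and 0.546 in DMSO and 0.760, 0.973 and 0.940 in Chelator, with no overlap (exact permutation p = 0.10, adjusted 0.114).

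P3H2 (chr3:189956728-190122437), linked to basement membrane collagen, was barely detected, with 2, 11 and 5 counts in DMSO and 6, 1 and 0 in Chelator. The groups overlapped, and the fitted interval ran from 0.0882-fold to 6.22-fold (adjusted p = 0.870, DESeq2). The mean length used for the offset went from 1411 bases in DMSO to 622 in Chelator. Summed counts scaled to library totals gave a ratio of 0.348, with an exact 95% interval of 0.123 to 0.873. That interval covers counting error only and not the spread between libraries.

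P3H3 (chr12:6828407-6839847), whose product is found with P3H4 and lysyl hydroxylase 1, was at 5.71, 5.15 and 4.85 TPM in DMSO and 5.77, 5.57 and 5.06 TPM in Chelator. The groups overlapped and the log2 fold change was 0.03 (95% interval -0.24 to 0.29, adjusted p = 0.908, DESeq2). Its protein-coding transcripts summed to 3.56, 4.35 and 2.78 TPM in DMSO and to 1.96, 2.11 and 2.46 TPM in Chelator, which did not overlap (two-sided exact permutation p = 0.10). The remainder was assigned mainly to retained-intron transcripts. GPR162, which overlaps P3H3 on the same strand, rose (log2 fold change 1.18, SE 0.32). P3H4 was at 0.911, 1.09 and 1.09 TPM in DMSO and 0.885, 0.920 and 0.862 TPM in Chelator and did not pass the test (adjusted p = 0.461, DESeq2).

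Of the lysyl hydroxylases, PLOD3 fell, and PLOD1 and PLOD2 did not pass the test. PLOD1 (chr1:11934205-11975538), which hydroxylates lysines of the triple helix, was at 68.6, 78.0 and 70.6 TPM in DMSO and 78.7, 74.0 and 78.7 TPM in Chelator. These libraries overlapped, and the log2 fold change was 0.06 with a 95% interval from -0.08 to 0.21 (adjusted p = 0.537, DESeq2). That interval ended below the lower bound for P4HA1, 1.37. The P4HA1 to PLOD1 ratio of TPM went from 0.208 ± 0.00408 to 0.577 ± 0.0353 (exact permutation p = 0.10, adjusted 0.114).

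PLOD2 (chr3:146035139-146163725), which hydroxylates lysines of the telopeptides and is known as a hypoxia-responsive gene in other cells, had 130, 161 and 114 counts in DMSO and 151, 129 and 115 in Chelator. The groups overlapped at 0.562 to 0.896 TPM and 0.526 to 0.673 TPM, and the log2 fold change was -0.27 (95% interval -0.77 to 0.23, adjusted p = 0.449, DESeq2). PLOD2 held 0.470% ± 0.0910 of lysyl hydroxylase TPM in DMSO and 0.429% ± 0.0521 in Chelator. FKBP10, a chaperone that works with lysyl hydroxylase 2, was also low and rose from 0.935, 0.994 and 0.672 TPM to 1.37, 1.73 and 1.43 TPM (log2 fold change 0.78, SE 0.27, adjusted p = 0.0130, DESeq2).

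PLOD3 (chr7:101205977-101218420), which also transfers sugars to hydroxylysine, was at 73.0, 77.9 and 75.9 TPM in DMSO and 58.4, 60.3 and 57.8 TPM in Chelator. All Chelator libraries were below the DMSO libraries, and the level fell to 0.762-fold (log2 fold change -0.39, SE 0.07, adjusted p = 1.02e-06, DESeq2). The estimated counts themselves overlapped, at 10035, 9023 and 8581 in DMSO and 9298, 10536 and 8985 in Chelator. The mean length over which they were spread went from 1690 to 1980 bases, and a fit that ignored length gave -0.17 on the log2 scale. ZNHIT1, which overlaps PLOD3 on the opposite strand, held 5718 to 7857 counts a library (log2 fold change -0.18, adjusted p = 0.0611, DESeq2), and reads of the stretch they share cannot be told apart without strand. Protein-coding PLOD3 transcripts alone went from 41.9, 45.6 and 40.3 TPM to 40.1, 39.7 and 39.2 TPM, a ratio of means of 0.931 (exact permutation p = 0.10). The PLOD1 to PLOD3 ratio of TPM went from 0.957 ± 0.0382 to 1.31 ± 0.0743 (exact permutation p = 0.10, adjusted 0.114).

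**Figure D3:**
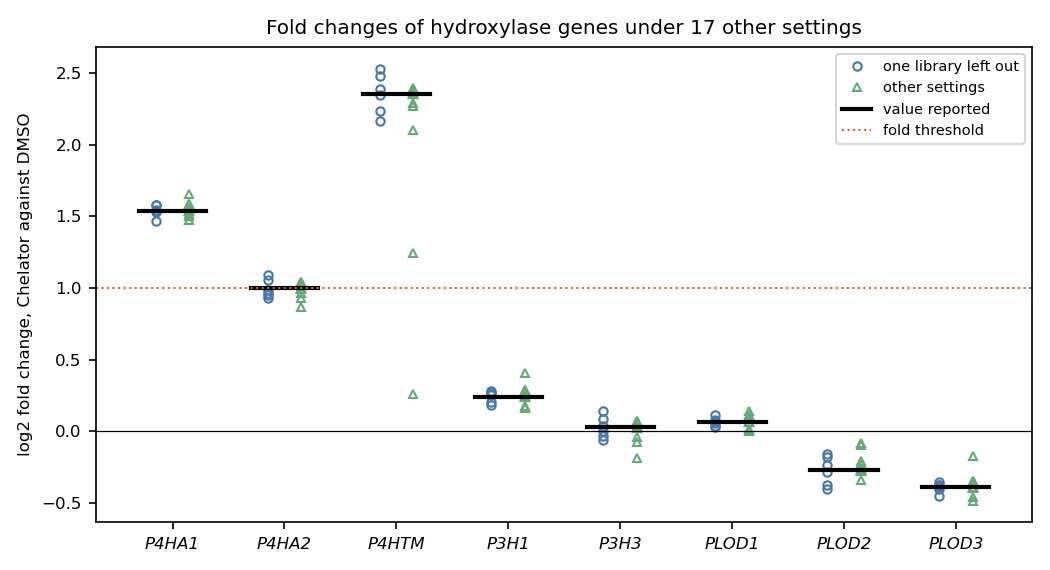
Log2 fold change of Chelator against DMSO for 8 hydroxylase genes (P4HA3 and P3H2, with at most 19 counts a library, are left out), as reported (black line), with 1 library left out (circles) and under the other settings (triangles). P4HA1 keeps above the dotted fold threshold, P4HA2 straddles it, and the P4HTM values at 0.26 and 1.25 come from a pseudocount on the TPM scale that is large beside its level.

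Transcript choice was compared in the 6 hydroxylase genes with at least 2 transcripts of 10 or more counts in 3 libraries, and a gene was called at an adjusted p under 0.05 (edgeR, diffSpliceDGE) with a transcript share that moved by more than 5 percentage points. PLOD3 and P3H1 were called, 2 of 6, where 9.22% of all genes tested were called. In PLOD3 (adjusted p = 0.00443) the share that fell furthest belonged to PLOD3-216, a retained-intron transcript of 562 bases at chr7:101215908-101216842. It held 19.89%, 19.95% and 24.1% of PLOD3 TPM in DMSO and 5.88%, 3.26% and 0% in Chelator, from 380, 327 and 410 estimated counts against 104, 65.9 and 0. PLOD3-201, the full-length protein-coding transcript, rose from 53.3%, 54.7% and 49.2% to 59.3%, 59.6% and 62.3%. Protein-coding transcripts as a whole went from 56.3% ± 2.82 to 67.4% ± 1.45 of PLOD3 TPM. The effective length that divides the counts of PLOD3-216 was 314 to 325 bases in DMSO and 363 to 377 bases in Chelator, and the part of fragment length in this result was not tested. The call was lost without Chelator replicate 2 (adjusted p = 0.0822) or without Chelator replicate 3 (adjusted p = 0.155).

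In P3H1 the call was marginal (adjusted p = 0.0445, edgeR). P3H1-214, a retained-intron transcript of 2813 bases, rose from 2.25%, 1.06% and 3.38% of P3H1 TPM to 3.92%, 10.4% and 9.28%. The main protein-coding transcript of P3H1, of 2591 bases, had the furthest drop of mean share, from 50.4% ± 5.97 to 44.6% ± 5.50, with overlapping libraries. The call was lost when any of 4 single libraries was left out, DMSO replicate 1 or 2 or Chelator replicate 2 or 3, with adjusted p from 0.123 to 0.710.

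P4HA1 was not called for transcript choice (adjusted p = 0.139, edgeR), although P4HA1-201 was at 35.7%, 14.7% and 24.4% of P4HA1 TPM in DMSO and 9.55%, 9.01% and 7.24% in Chelator, without overlap. P4HA2 (adjusted p = 0.390), PLOD1 (0.841) and P3H3 (1.00) were not called either by edgeR.

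**Figure D4:**
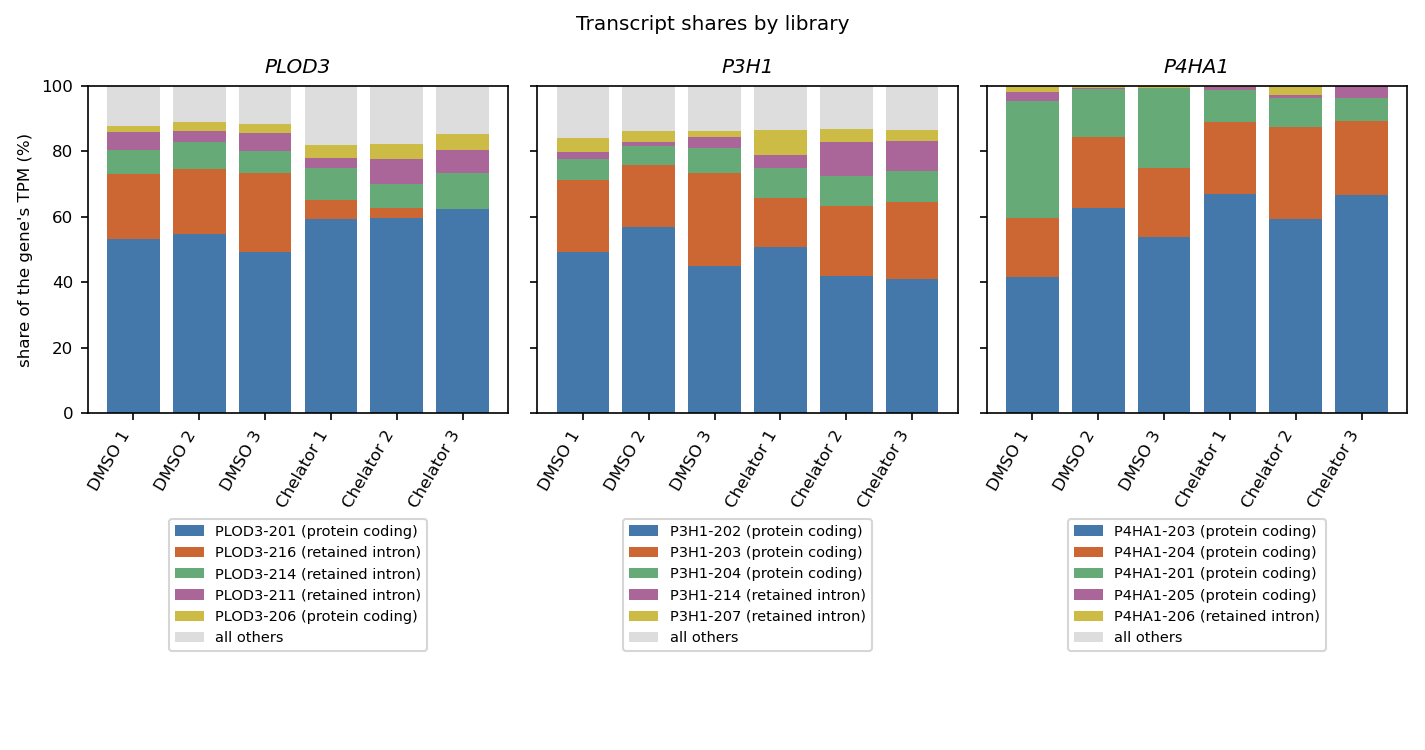
Share of the gene's TPM held by each of the 5 most abundant transcripts of PLOD3, P3H1 and P4HA1 in each library, as stacked bars. All other transcripts are stacked as a remainder, so that bars sum to 100%. PLOD3-216 shrinks from 19.9% to 24.1% in DMSO to at most 5.88% in Chelator, and DMSO replicate 1 has the highest share of P4HA1-201.

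Alternative exons were compared by their inclusion, the TPM of transcripts with the exon over that of transcripts with and without it (percent spliced in). In all, 10 exons of P4HA1, P4HA2 and PLOD3 had a mean inclusion between 5% and 95% in at least 1 group and at least 1 TPM in both. PLOD2, known for an alternative exon, was below that level. Both P4HA1 and P4HA2 carry a pair of coding exons of which a transcript holds 1 or the other, and these are shown because they distinguish the enzyme's isoforms. The P4HA1 exons have 71 bases each and differ at 28 positions (60.6% identical), which are in capitals.
P4HA1 upstream exon, chr10:73044981-73045051, minus strand: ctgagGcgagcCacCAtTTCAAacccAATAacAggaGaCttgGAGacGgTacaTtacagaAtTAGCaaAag
P4HA1 downstream exon, chr10:73043887-73043957, minus strand: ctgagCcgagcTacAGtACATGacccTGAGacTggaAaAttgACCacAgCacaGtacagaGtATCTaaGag
P4HA2 upstream exon, chr5:132198321-132198380, minus strand: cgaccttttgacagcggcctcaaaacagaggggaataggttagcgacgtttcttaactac
P4HA2 downstream exon, chr5:132198206-132198271, minus strand: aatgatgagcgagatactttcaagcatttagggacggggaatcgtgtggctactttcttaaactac

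The downstream P4HA1 exon held 81.5%, 78.2% and 78.9% of the TPM of transcripts with either exon in DMSO and 77.8%, 71.3% and 77.4% in Chelator. The groups did not overlap, but the change of -3.98 percentage points was close to the SD in Chelator (3.65) and was -1.88 without Chelator replicate 2, and p was 0.10 by a two-sided exact permutation test, the smallest it can give (adjusted 0.25 over 10 exons). The upstream exon is its complement. At 6882, 5834 and 5398 estimated counts in Chelator against 2042, 1919 and 1719 in DMSO, transcripts with the downstream exon rose with the gene, and those with the upstream exon did too, from 453, 530 and 453 to 1945, 2326 and 1563.

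In P4HA2, the upstream exon of 60 bases was at 60.2%, 63.4% and 61.9% in DMSO and 62.6%, 69.5% and 65.1% in Chelator. The groups overlapped (exact permutation p = 0.20, adjusted 0.286), and the change of 3.93 percentage points became 2.06 without Chelator replicate 2 and -2.84 when estimated counts replaced TPM. A noncoding P4HA2 exon of 173 bases (chr5:132227086-132227258) near the start of its main transcripts had the widest change of the 10, from 33.3%, 43.98% and 34.7% to 58.7%, 55.6% and 48.6%, with no overlap (exact permutation p = 0.10, adjusted 0.25). A PLOD3 coding exon of 147 bases (chr7:101207578-101207724) went from 96.7%, 95.3% and 94.7% to 93.7%, 92.8% and 92.7%, without overlap (exact permutation p = 0.10, adjusted 0.25). The change was -2.52 percentage points with TPM and -0.960 with estimated counts.

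**Figure D5:**
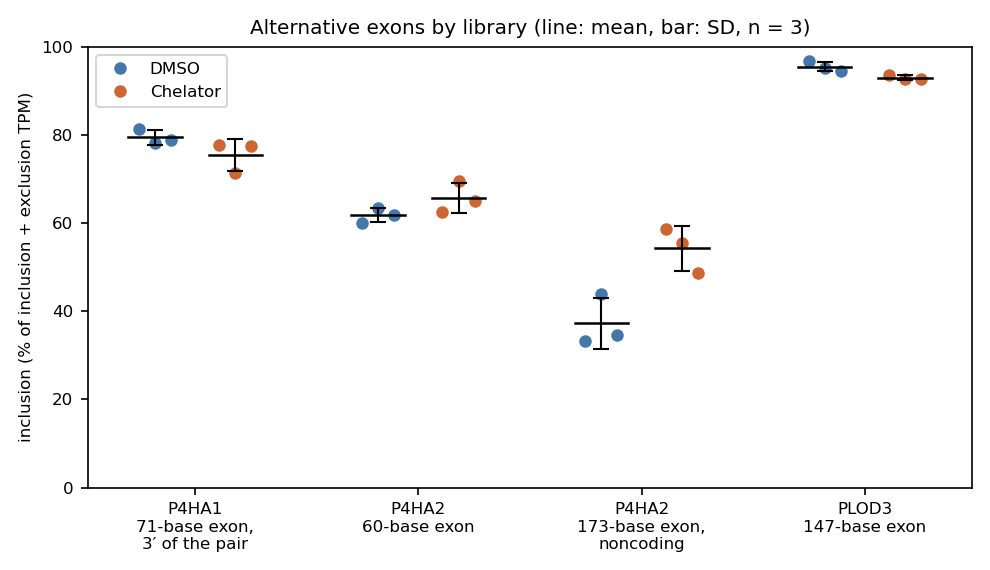
Inclusion of 4 alternative exons in each library as a percent of inclusion plus exclusion TPM, with lines for means and bars for SD (n = 3). The 173-base exon of P4HA2 moves from 37.3% ± 5.81 to 54.3% ± 5.16, and the other 3 exons move by less than 4 percentage points.

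Genes that act on collagen beside the hydroxylases were taken from a list of 43. Of the 39 tested, 4 were called higher and 1 lower (8.18% and 2.6% of all genes), and by adjusted p 14 were higher and 7 lower (19.5% and 18.3% of all genes, DESeq2), with a median log2 fold change of 0.16. The galactosyltransferases that act on hydroxylysine moved apart. COLGALT2 rose from 13.2 ± 1.82 to 27.4 ± 1.85 TPM (log2 fold change 1.03, SE 0.09, called), and COLGALT1, the more abundant, fell from 125, 141 and 140 TPM to 102, 104 and 110 TPM (-0.39, SE 0.08). The call of COLGALT2 was lost when fold changes were centred on the mean of all genes and without Chelator replicate 1. SERPINH1, the collagen chaperone HSP47, rose from 76.4, 84.1 and 77.1 TPM to 109, 114 and 117 TPM (log2 fold change 0.49, SE 0.07). The other calls lay at low levels. The interstitial collagenase MMP1 had 1, 1 and 2 counts in DMSO and 15, 25 and 33 in Chelator, a ratio of 16.3 scaled to library totals, with a counting interval of 6.11 to 61.5. The lysyl oxidase-like LOXL4 rose from 39, 16 and 21 to 117, 164 and 113 counts, and cathepsin K (CTSK) from 117, 121 and 98 to 312, 297 and 228. The CTSK call was also lost without Chelator replicate 1. PCOLCE2, an enhancer of procollagen processing, fell from 1.38, 1.23 and 1.35 TPM to 0.478, 0.440 and 0.811 TPM.

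Of 44 collagen chain genes, 39 were tested, 9 were called higher and 2 lower (DESeq2, 8.18% and 2.6% of all genes), and the median log2 fold change was 0.70. Without the length offset, DESeq2 called 10 higher and 0 lower, with 4 lower at an unadjusted p under 0.05, and edgeR with the offset called 9 and 2. The chains of highest mean TPM over the 6 libraries were COL18A1 (16.6, 18.1 and 16.5 TPM in DMSO, 24.2, 23.2 and 23.6 TPM in Chelator), COL4A2 (7.62, 7.55 and 7.53 TPM, then 6.08, 6.93 and 6.75 TPM) and COL15A1 (1.50, 2.21 and 1.40 TPM, then 5.08, 4.55 and 5.04 TPM). COL15A1 was called (log2 fold change 1.51, SE 0.13), COL18A1 rose by less (0.44, SE 0.07) and COL4A2 did not pass the test (adjusted p = 0.215, DESeq2). In DMSO alone COL6A5 (3.46 TPM) and COL1A2 (2.48 TPM) lay above COL15A1, and COL6A5 fell (log2 fold change -0.55, adjusted p = 2.87e-08, DESeq2). The highest fold changes called, with the length offset, were those of COL7A1, the chain of anchoring fibrils, from 49, 58 and 16 to 398, 428 and 351 counts, and of COL2A1, the cartilage collagen, which had 0, 0 and 2 counts in DMSO and 16, 13 and 5 in Chelator. The call of COL2A1 was marginal (adjusted p = 0.0459, DESeq2) and was lost in 10 of 16 alternatives, among them 5 of the 6 that left out 1 library, every one but DMSO replicate 3, and the replicate block. It was not tested with a minimum of 10 counts in 3 libraries. COL6A3 went from 57, 51 and 50 to 1859, 1705 and 1384 counts, and its log2 fold change was 3.48 (SE 0.88), with 40.0, 254.5 and 37.9 normalized counts in DMSO. Without the offset COL6A3 was highest of these at 4.73, against 3.04 for COL7A1 and 3.79 for COL2A1. COL25A1 and COL5A1 had the lowest fold changes among those called (log2 fold change -2.38, SE 0.44 and -1.74, SE 0.56), both from levels of at most 1.43 TPM. Both calls depended on the length offset. COL5A1 had 11, 9 and 22 counts in DMSO and 44, 45 and 56 in Chelator, while the average effective length used for the offset went from 956 to 9248 bases. With no offset it was called higher instead (log2 fold change 1.54, SE 0.52). COL25A1 was at -0.97 without the offset and was not called. The COL5A1 call was also lost without DMSO replicate 3 or Chelator replicate 2.

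The genes whose 6 libraries were most like those of P4HA1 were ASNS, KRT8 and HPCAL1. The measure was the root mean square difference of log2 normalized counts, each gene centred on its DMSO mean, over 9654 protein-coding genes with a mean of at least 500 normalized counts, and it was 0.0472, 0.0488 and 0.0536 for these 3 genes. Their log2 fold changes were 1.54, 1.60 and 1.49. For P4HTM the nearest were PLA2G6, HNRNPA1L3 and NRGN at 0.144, 0.185 and 0.195, though HNRNPA1L3 is a near copy of HNRNPA1 and its counts are uncertain.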

How the data were processed

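Polyadenylated RNA of 6 K562 libraries (3 Chelator, 3 DMSO, grouped by the sample labels) was sequenced as read pairs. The authors quantified transcripts with Salmon 1.10.2 (hg38, per the submitters' processing notes), and the deposited estimated counts, which need not be whole, were used as given. The authors also deposited TPM, which Salmon derives from those counts by dividing by effective transcript length and rescaling each library. Deposited transcript lengths and effective lengths, in bases, were used for the offset. The annotation and bias settings are not given in the sources used here.

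Of 252045 transcripts, 251142 matched GENCODE release 44 in version and length, 470 in identifier alone and 433 not at all (0.139% to 0.150% of counts, left out). Counts were summed per gene and rounded. Genes with a total above 10 (26074) were tested with DESeq2 1.42.0 in R 4.3.3 with average transcript length as offset, and 24542 received an adjusted p. Thresholds follow the study's methods. Transcript usage was tested in 11938 genes with edgeR 4.0.16, and limma 3.58.1 served as an alternative. Exon inclusion and ratios were compared by exact permutation. Scripts were tested on simulated data. Counting intervals cover counting error only.

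The members and lists were chosen with earlier results of these data known. By rule, all 10 hydroxylases were named, 8 fixed partners plus the called list genes with the largest changes, the 3 collagen chains of highest mean TPM, the 2 called chains that rose furthest and the 2 that fell furthest, the hydroxylases of hypoxia-inducible factors, the 3 genes most like each called member, and the transcripts that moved most in genes called for usage. Others (WDR6, PDLIM4, SLC22A4, GPR162, P4HA1-201, P4HA2 and P3H3 transcripts, COL6A3, COL6A5, COL1A2, ZNHIT1, marker genes) were named for overlap or as checks after their values were seen.

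Replicate numbers come from the labels, and nothing says that a number marks a shared culture or day. Alternatives covered normalization, filters, offset, tool, thresholds and single libraries left out.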

Additional observations from a re-analysis of the deposited data

How the results depend on the processing

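Of 405 combinations of a result and another setting, 353 stayed on their side of the threshold in the same direction, kept a count within 1.5 times or, for exon inclusion, moved by less than the SD between replicates, where small changes could turn sign. P4HA1 was called under every setting listed here. Tested against a log2 fold change of 1 in place of 0, DESeq2 called 1 hydroxylase (P4HA1), 674 genes, 6 collagen chains and 0 of the 39 partner genes (2 at an unadjusted p under 0.05, LOXL4 and MMP1, with 5 called by edgeR against 0), and the adjusted p passed the threshold for none of P4HA2 (log2 fold change 1.00), P4HTM (2.36), PLOD3 (-0.39) and P3H1 (0.24), which follows from that test's stricter null. With limma on log2(TPM + 1), 1 hydroxylase, 797 genes, 1 partner and 2 chains were called, since a pseudocount of 1 shrinks changes of genes below 1 TPM. Without a fold threshold the counts were 5, 9260 and 21 for hydroxylases, genes and partners. Without the length offset 8 partners were called, and the cause was not tested. Directions of genes that did not pass the test turned for PLOD1 (-0.0024) and P3H3 (-0.0403) when centred on the mean change, where P3H1 was at 0.17, and for P3H3 also without the offset (-0.19) and with GC content and length trends removed (-0.0777). With 1 library left out, log2 fold changes ran from -1.18 to 0.14 for P4HA3, -2.91 to 0.35 for P3H2, -0.0633 to 0.14 for P3H3 and 0.18 to 0.28 for P3H1, and 3 to 6 partners were called, the 3 without Chelator replicate 1. For transcript usage, limma called 5 hydroxylases and 3184 genes, a minimum of 5 counts left 1 hydroxylase (PLOD3), and leaving out 1 library gave 0 to 2 hydroxylases and 539 to 1063 genes. The 0 arose without Chelator replicate 2 or 3 (edgeR, with 1 and 3 hydroxylases at an unadjusted p under 0.05), and those settings gave 592 and 539 genes. With estimated counts in place of TPM, inclusion changed by 2.84 and -2.84 percentage points for the 66-base and 60-base exons of P4HA2 and by -0.96 for the 147-base exon of PLOD3.

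Whether replicate numbers pair the samples was not settled. Deviations from group means correlated at -0.0036, 0.125 and 0.0939 for numbers 1, 2 and 3 over 15222 genes. Pairs of unlike number ran from -0.124 to 0.0459, and 3 libraries a group are too few to decide it. With the replicate block, 3 hydroxylases were called (P4HA2 at 1.00 joined) and 1 was called for transcript usage (PLOD3). Depth limits P4HA3, P3H2 and P4HTM, whose libraries held at most 55 counts.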
